A study of Mus musculus with 8 samples.

Results

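The 6 genes described here encode core proteins of ribosome assembly in the nucleolus: Ncl (ENSMUSG00000026234), Npm1 (ENSMUSG00000057113), Fbl (ENSMUSG00000046865), Nop56 (ENSMUSG00000027405), Nop58 (ENSMUSG00000026020) and Dkc1 (ENSMUSG00000031403). They were taken by identifier under a rule that uses no measured value, and are 6 of the 28785 genes listed in any of the libraries. RNA was sequenced from embryonic fibroblasts of the mouse (cultured connective tissue cells) with the TSC2+/+ genotype and the C57BL/6J strain. Control cells had no heat shock, and the other cells (PostHS) were kept at 42 °C for 1 h and then recovered for 3 h at 37 °C. From each condition a chromatin pellet and a cytoplasmic fraction were sequenced, which gave 4 libraries with 1 library per fraction and condition. Lysis and wash buffers of the fractionation contained alpha-amanitin, an inhibitor of RNA polymerase II, in both conditions and both fractions. The series also labels 4 chromatin libraries for m6A mapping (immunoprecipitates and inputs), which were not analysed here.

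Ribosomes are assembled in the nucleolus, where RNA polymerase I makes the ribosomal RNA precursor. Small nucleolar RNAs (snoRNAs) guide chemical modification of that precursor, those of the box C/D class ribose methylation and those of the box H/ACA class the conversion of uridine to pseudouridine. Their protein partners are made from ordinary mRNAs, several of which carry snoRNAs in their own introns. Nucleolar structure and ribosomal RNA synthesis are known to be sensitive to heat in mammalian cells.

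No difference between these libraries has a replicate check, so no significance test was made and all values describe single libraries. The library totals implied by the deposited values were 8292312 to 19536459 reads. The 6 genes had 132 to 4613 reads each in a library. Levels are RPKM, reads divided by gene length and by library size, and the gene length behind them is close to the whole gene with introns. An RPKM is a share of a library, so more RNA from a gene and less RNA from other genes cannot be told apart, nor can fewer cells and less RNA per cell. The files hold Ensembl identifiers without symbols, and the reference table used here pairs 0 of them with a symbol. Marker genes of fibroblasts and of other cell types, heat shock genes and RNAs typical of either fraction were therefore not examined, and the labels were not checked that way. For the same reason a list of other ribosome assembly genes was not applied.

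The genes are given with their places in the RefSeq annotation of GRCm38.p6. Ncl lies on chromosome 1 from 86344719 to 86359455, a span of 14737 bp, and the length implied by its RPKM was 14682 bp. Npm1 lies on chromosome 11 from 33152498 to 33164142 (11645 bp, implied 10920 bp). Fbl lies on chromosome 7 from 28168893 to 28179269 (10377 bp, implied 9522 bp). These implied lengths were 91.8% to 99.6% of the annotated spans. Nop56 lies on chromosome 2 from 130274367 to 130279313 (4947 bp, implied 4884 bp). Nop58 lies on chromosome 1 from 59684961 to 59711510 (26550 bp, implied 34074 bp), which makes it the gene whose implied length departed most from the annotation, at 128%. Dkc1 lies on chromosome X from 75095854 to 75109776 (13923 bp, implied 13924 bp). Ratios between libraries for the same gene do not depend on these lengths.

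Small RNA genes are annotated inside 4 of the 6 spans. Nop56 holds 5 snoRNA genes, among them Snord110 and Snord57, and Nop58 holds 4, among them Snord70 and Snord11. Ncl holds 2 snoRNA genes, Snora75 and Snord82, and 1 miRNA gene, Gm24148. Dkc1 holds 1 snoRNA gene, Gm25520, while Npm1 and Fbl hold 0. Together they cover 411 bp in Nop56, 331 bp in Ncl, 281 bp in Nop58 and 118 bp in Dkc1. How reads over these small RNA genes were assigned is not given in the sources used here, and their part in the values below was not tested. The annotated ends of Nop56 and Idh3b overlap by 5 bp and those of Dkc1 and Mpp1 by 44 bp.

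Ncl, Nop56, Nop58 and Dkc1 are the 4 genes with a RefSeq promoter window here (GRCm38.p6). For each, the 250 bases before the start of the promoter window's transcript are printed. They are written 5′ to 3′ on the strand of the gene, and capitals mark the matches to the motifs named after them. For Nop56 and Nop58 that start lies downstream of the first base of the gene span given above.
Ncl, chr1:86359456-86359705, minus strand: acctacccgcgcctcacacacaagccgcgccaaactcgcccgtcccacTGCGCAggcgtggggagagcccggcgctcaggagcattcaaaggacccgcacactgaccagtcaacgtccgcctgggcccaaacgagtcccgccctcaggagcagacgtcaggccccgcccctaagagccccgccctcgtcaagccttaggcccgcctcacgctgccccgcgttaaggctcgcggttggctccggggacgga
Nop56, chr2:130274162-130274411, plus strand: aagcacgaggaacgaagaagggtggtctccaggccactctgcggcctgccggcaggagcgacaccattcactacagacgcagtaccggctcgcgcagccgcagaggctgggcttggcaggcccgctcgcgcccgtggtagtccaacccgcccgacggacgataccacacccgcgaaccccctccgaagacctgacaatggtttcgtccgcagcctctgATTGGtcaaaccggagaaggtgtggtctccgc
Nop58, chr1:59684756-59685005, plus strand: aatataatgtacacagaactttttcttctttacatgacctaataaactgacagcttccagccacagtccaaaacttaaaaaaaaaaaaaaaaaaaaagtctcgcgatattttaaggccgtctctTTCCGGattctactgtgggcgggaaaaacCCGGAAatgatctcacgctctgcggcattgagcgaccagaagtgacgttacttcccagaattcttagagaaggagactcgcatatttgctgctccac
Dkc1, chrX:75095604-75095853, plus strand: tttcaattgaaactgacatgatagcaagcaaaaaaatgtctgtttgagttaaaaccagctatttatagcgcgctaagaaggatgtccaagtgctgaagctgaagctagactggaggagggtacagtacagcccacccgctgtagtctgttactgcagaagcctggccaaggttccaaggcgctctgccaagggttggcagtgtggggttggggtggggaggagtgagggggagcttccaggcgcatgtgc

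Exact matches on both strands were sought in the whole RefSeq window of 300 bases, which also holds 50 bases after the start. The E-box CACGTG, the site of MYC and related factors, was in 0 of the 4 windows and in 7.15% of all 32851 windows. The heat shock element core pairs GAANNTTC and TTCNNGAA were also in 0 of 4, against 15.1% of all windows. The NRF1 core TGCGCA was in the Ncl window (position -202 from the start), against 7.76% of all. In the Nop58 window the ETS core CCGGAA occurred at -126, on the opposite strand, and at -97, and 14.9% of all windows hold it. CCAAT was in the windows of Nop56 (-32, opposite strand) and Dkc1 (26 bases after the start, outside the printed part), against 37.4% of all windows. No motif was shared by more than 2 of the 4 windows, and matches of letters do not show binding. The windows of Ncl and Nop56 had 69.3% and 66.0% G and C, those of Dkc1 and Nop58 53.0% and 45.3%, and the median of all windows was 52.7%.

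Nucleolin, encoded by Ncl, is an abundant RNA-binding protein of the nucleolus with roles in ribosomal RNA synthesis and processing. Its level was 7.91 RPKM in chromatin without heat shock and 16.1 after it, and 17.9 RPKM in cytoplasm without heat shock and 13.3 after it. Chromatin without heat shock was thus the lowest of the 4 libraries and cytoplasm without heat shock the highest. Nucleophosmin, encoded by Npm1, is a histone and ribosome chaperone of the outer, granular part of the nucleolus. Npm1 followed Ncl closely, with 7.55 and 14.2 RPKM in chromatin and 17.3 and 13.6 RPKM in cytoplasm, without and after heat shock. On the deposited scale the 2 fractions of both genes differed more without heat shock than after it. With the same RPKM sum in each library the order was the other way, with log2 ratios of chromatin over cytoplasm of 0.46 without and 1.42 after heat shock for Ncl and 0.44 and 1.23 for Npm1.

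Fibrillarin, Nop56 and Nop58 are core proteins of box C/D snoRNPs, the particles that methylate ribosomal RNA. Fibrillarin, encoded by Fbl, is the methyltransferase itself. Fbl was low per length of gene, with 1.35 RPKM in chromatin without heat shock, 2.34 after it, and 1.75 and 1.25 RPKM in cytoplasm. Nop56 and Nop58 are related proteins that form the scaffold of the particle. Nop56 had the highest chromatin levels of the 6 genes per length, with 16.0 RPKM without and 23.3 after heat shock, and 13.3 and 7.98 RPKM in cytoplasm. Nop58 had 4.48 and 6.89 RPKM in chromatin and 1.73 and 1.43 RPKM in cytoplasm. For Nop56 and Nop58 both chromatin libraries were above both cytoplasmic libraries.

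Dyskerin, encoded by Dkc1, is the pseudouridine synthase of box H/ACA snoRNPs and a component of telomerase. Dkc1 had 0.915 RPKM in chromatin without heat shock and 1.31 after it, and 1.96 and 1.10 RPKM in cytoplasm. It was the lowest of the 6 genes in 3 of the 4 libraries, the exception being cytoplasm without heat shock, where Nop58 and Fbl were lower. The order per length of gene was Nop56, Ncl, Npm1, Nop58, Fbl and Dkc1 in both chromatin libraries. Without heat shock the cytoplasmic order was Ncl, Npm1, Nop56, Dkc1, Fbl and Nop58. After it Npm1 stood just above Ncl, and Nop58 above Fbl and Dkc1. With single libraries there is no spread against which neighbours such as Ncl and Npm1 could be told apart.

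**Figure D1:**
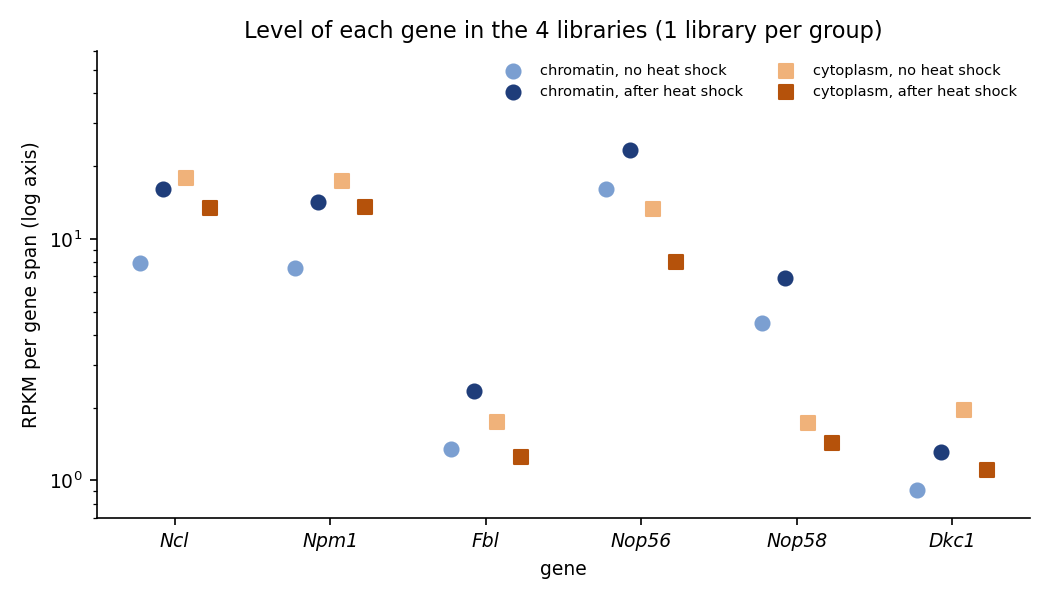
RPKM of the 6 genes on a log axis, with 1 point for each library: circles are chromatin and squares cytoplasm, pale without and dark after heat shock. In each gene the dark circle lies above the pale circle and the dark square below the pale square, as for Ncl with 7.91 and 16.1 RPKM in chromatin and 17.9 and 13.3 in cytoplasm.

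Ranks within a library do not depend on its scale. They are given among the 4688 genes whose RPKM averaged 1 or more (kept genes), counting those with a read in that library. In chromatin Ncl stood at the 89.7th percentile without heat shock and the 93.9th after it. Npm1 moved from the 89.1st to the 93.2nd percentile and Nop58 from the 78.0th to the 84.8th. Fbl moved furthest, from the 17.7th to the 42.8th. Nop56 stood at the 95.2nd and 95.4th and Dkc1 at the 7.50th and 11.9th. The RPKM ratio of Fbl in chromatin, 1.73, was below those of Ncl (2.03) and Npm1 (1.88). A rank move thus does not measure the size of a ratio. In cytoplasm Ncl and Npm1 stayed between the 93.4th and 93.8th percentiles. Nop56 went from the 92.3rd to the 90.6th percentile, Fbl from the 61.1st to the 59.5th and Dkc1 from the 64.6th to the 56.4th, while Nop58 went from the 60.8th to the 63.4th. A higher rank in chromatin after heat shock was seen in 6 of 6 members and in 48.7% of 4635 kept genes. A lower rank in cytoplasm was seen in 5 of 6 members and in 61.8% of 4505 kept genes, and the moves of Ncl and Npm1 were under 1 percentile.

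The first comparison asked how chromatin RNA of these genes differed after heat shock and recovery. All 6 genes were higher, from 1.43-fold for Dkc1 to 2.03-fold for Ncl, on RPKM ratios without a pseudocount. Intervals are exact 95% Clopper-Pearson intervals on the recovered reads and cover counting error only, because each group has 1 library. They also treat each read as 1 molecule, although no molecular identifiers separate molecules from copies, so even the counting error may be larger. Ncl had 2133 reads without and 4613 after heat shock, a 2.03-fold difference (1.93 to 2.14). Npm1 was 1.88-fold higher (1.77 to 2.00), with 1514 and 3034 reads. Ncl and Npm1 had the largest ratios of the 6 genes, with intervals that overlapped that of Fbl. Among the box C/D genes Fbl was 1.73-fold higher (1.48 to 2.04), Nop58 1.54-fold (1.47 to 1.61) and Nop56 1.46-fold (1.36 to 1.56). Dkc1 was 1.43-fold higher (1.21 to 1.69), with 234 and 356 reads. The median kept gene was 1.12-fold higher on the same scale.

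Changes across all genes were set on log2 ratios of RPKM + 1, which shrink differences of low genes. On this scale the members ran from 0.27 for Dkc1 to 0.94 for Ncl, with a median of 0.52, against a median of 0.12 over 4635 genes. A ratio above 0 was seen in 6 of 6 members and in 58.5% of all genes. None of the 6 passed 2-fold higher (10.4% of all genes did) or 2-fold lower (4.66%). Ncl stood at the 88.5th percentile of all log2 ratios, Npm1 at the 86.4th, Nop58 at the 75.6th, Nop56 at the 75.1st, Fbl at the 74.7th and Dkc1 at the 60.6th. Among the 2256 genes with implied lengths between those of Nop56 and Nop58, the percentiles were similar or higher, from 62.4 for Dkc1 to 92.5 for Ncl. Scaling each library to the same RPKM sum lowered the chromatin median of all genes to -0.38 and left 3 members above 0 and 3 below. All 6 members were still above that median. Their place above it was largely fixed in advance, because a scale shifts all genes by similar amounts.

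In cytoplasm all 6 genes were lower after heat shock, from 1.21-fold for Nop58 to 1.77-fold for Dkc1. Dkc1 had 226 reads without and 171 after heat shock in a deeper library, which was 1.77-fold lower (1.45 to 2.18). Nop56 was 1.67-fold lower (1.47 to 1.90), with 540 and 434 reads. Fbl was 1.40-fold lower (1.10 to 1.80), with 138 and 132 reads. Ncl (2182 and 2181 reads) was 1.34-fold lower (1.27 to 1.43) and Npm1 (1563 and 1648 reads) 1.27-fold (1.19 to 1.37). Nop58 was 1.21-fold lower (1.07 to 1.37), with 490 and 543 reads. The median kept gene was 1.44-fold lower on the same scale, so 4 of the 6 members were less far down than the median gene, and Nop56 and Dkc1 further.

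On log2 ratios of RPKM + 1 the members ran from -0.67 for Nop56 to -0.17 for Nop58. Their median was -0.36, against -0.25 over 4505 genes. A ratio below 0 was seen in 6 of 6 members and in 83.8% of all genes, so the shared direction is that of most genes in these libraries. None passed 2-fold lower (2.44% of all genes) or 2-fold higher (3.4%). Nop56 stood at the 6.81st percentile of all log2 ratios and Dkc1 at the 16.4th. Ncl, Npm1 and Fbl stood between the 26.5th and the 42.8th and Nop58 at the 65.1st. After centring on the median gene, Nop58 was at 0.08 and the other 5 members were still below 0. Without a pseudocount the percentiles were 24.1 for Dkc1, 30.4 for Nop56, 54.1 for Fbl, 59.9 for Ncl, 67.3 for Npm1 and 72.0 for Nop58. The member median was then -0.46, above the -0.53 of all genes. The side of the all-gene median on which the members fall thus depends on the pseudocount.

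**Figure D2:**
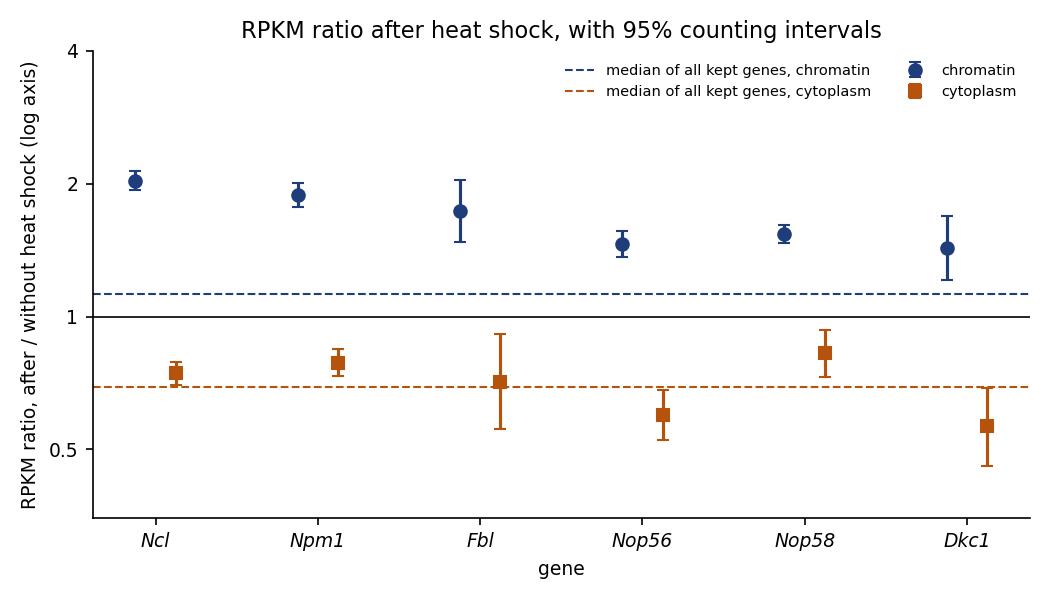
RPKM ratio after over without heat shock for each gene on a log axis, in chromatin (circles) and cytoplasm (squares), with 95% counting intervals as bars. The chromatin ratios run from 1.43 to 2.03 and lie above the dashed median of all kept genes at 1.12. The cytoplasmic intervals all lie below 1, as does the dashed cytoplasmic median of all kept genes at 0.692. The cytoplasmic ratios of Nop56 and Dkc1 lie below that median and those of the other genes above it.

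Ratios of 2 members within a library are free of its scale, so the change of such a ratio was computed for all 15 pairs in each fraction, without adjustment for their number. The intervals cover counting error in single libraries and narrow with the reads, and other gene pairs were not computed, so the values describe these pairs alone. In chromatin Ncl increased 1.39-fold over Nop56 (1.28 to 1.52), 1.32-fold over Nop58 (1.23 to 1.42) and 1.42-fold over Dkc1 (1.19 to 1.69). Npm1 increased 1.29-fold over Nop56 (1.18 to 1.42), 1.23-fold over Nop58 (1.13 to 1.33) and 1.32-fold over Dkc1 (1.10 to 1.58). Ncl over Npm1 changed 1.08-fold (0.995 to 1.17). The interval of each of the 5 pairs with Fbl, the gene with the fewest reads beside Dkc1, included 1.

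In cytoplasm Nop56 decreased against Nop58 to 0.725 of its ratio without heat shock (0.606 to 0.868). In chromatin that ratio was 0.948 of its former value (0.874 to 1.03). Nop58 increased 1.46-fold over Dkc1 (1.15 to 1.86), and Ncl 1.24-fold over Nop56 (1.08 to 1.43). The change of Ncl over Npm1 was 0.948 (0.864 to 1.04). In each fraction the interval left out 1 for 6 of the 15 pairs and included it for the rest.

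Chromatin was next compared with cytoplasm within each condition. Nop58 was on the chromatin side and Ncl, Npm1 and Dkc1 on the cytoplasmic side without heat shock. Nop58 was 2.58-fold higher in chromatin (2.35 to 2.85) and Nop56 1.20-fold (1.09 to 1.33). Fbl had a ratio of 0.772 (0.623 to 0.960), Dkc1 of 0.468 (0.388 to 0.564), Ncl of 0.441 (0.416 to 0.469) and Npm1 of 0.437 (0.407 to 0.470). The 3 box C/D genes therefore had the highest ratios, and the intervals of Dkc1, Ncl and Npm1 overlapped each other. The median kept gene had a ratio of 1.96, which only Nop58 exceeded.

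After heat shock the same 3 box C/D genes again had the highest ratios, in a pair of libraries that shares none with the first. The gene spans, with their introns and small RNA genes, are the same in both pairs, and their part in this order was not tested. Nop58 was 4.81-fold higher in chromatin (4.40 to 5.27), Nop56 2.92-fold (2.64 to 3.25) and Fbl 1.88-fold (1.54 to 2.30). Ncl had a ratio of 1.21 (1.15 to 1.27), Dkc1 of 1.19 (0.986 to 1.43) and Npm1 of 1.05 (0.988 to 1.11), against 3.13 for the median kept gene.

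On log2 ratios of RPKM + 1, Nop58 was past 2-fold higher in chromatin without heat shock (1 member, against 32.4% of all genes) at 1.00, and Ncl and Npm1 were past 2-fold lower (2 members, against 11.7%), both at -1.09. The medians were -0.43 for the members and 0.58 for all genes. After heat shock Nop56 (1.44) and Nop58 (1.70) were past 2-fold higher (45.8% of all genes were) and 0 members were past 2-fold lower (6.93%). The medians were then 0.41 and 0.92. At a mean of at least 5 RPKM they were 0.25 for the 3 members kept and 0.15 for all genes. The side on which a gene falls depends on the scale of the libraries. With the same RPKM sum in each library all 6 members were on the chromatin side in both conditions. The medians of all genes were on that side too, at 1.73 without and 1.59 after heat shock. When the scale left out the 10 genes with most reads, 6 of 6 members without and 5 of 6 after heat shock were on the cytoplasmic side. The medians of all genes were then -0.47 and -0.04. The share of a library taken by these 10 genes, chosen by their mean share over the libraries, was 21.4% in control chromatin, 32.6% in heat-shocked chromatin, 75.2% in control cytoplasm and 79.3% in heat-shocked cytoplasm. The order of the members does not depend on that scale for ratios without a pseudocount.

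**Figure D3:**
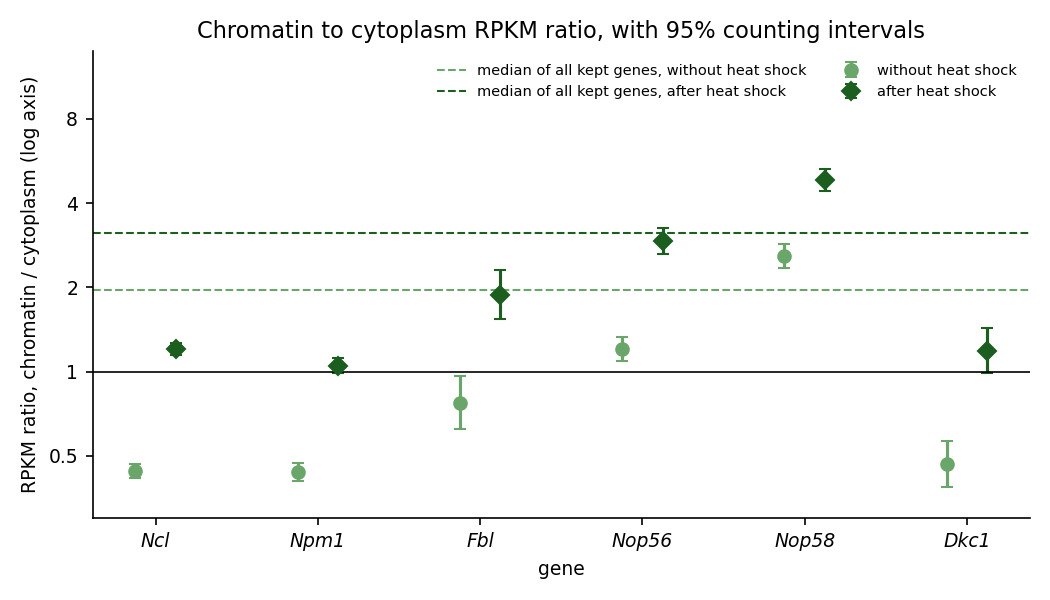
RPKM ratio of chromatin over cytoplasm for each gene on a log axis, without (circles) and after heat shock (diamonds), with 95% counting intervals as bars and the medians of all kept genes as dashed lines. Nop58 is highest in both conditions, at 2.58 and 4.81, and Npm1 lowest, at 0.437 and 1.05.

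The last comparison set the heat shock ratio in chromatin against that in cytoplasm. All 6 genes had the higher ratio in chromatin. Without a pseudocount the chromatin ratio was 2.73 times the cytoplasmic one for Ncl (2.52 to 2.96) and 1.86 times for Nop58 (1.63 to 2.13), the highest and lowest of the 6. It was 2.54 times for Dkc1 (1.94 to 3.31), 2.44 times for Nop56 (2.11 to 2.82), 2.43 times for Fbl (1.81 to 3.27) and 2.40 times for Npm1 (2.18 to 2.63). Within each fraction, 6 of the 15 member pairs had an interval that left out 1. For the ratio between fractions, the intervals of Dkc1, Nop56, Fbl, Npm1 and Ncl overlapped each other. That of Nop58 did not overlap those of Ncl and Npm1.

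On log2 ratios of RPKM + 1 the difference was 0.69 to 1.34, with a median of 0.98 against 0.37 over 4473 genes. It was above 0 in 6 of 6 members and in 73.3% of all genes. Ncl, Npm1 and Nop56 (3 members) had a difference of 1 or more, which 16.5% of all genes had, and 0 members had one of -1 or less (4.52% of all genes). These 3 are the members with a mean of at least 5 RPKM. Among genes at that level a difference of 1 or more was common, in 302 of 752, and their median was 0.78. The count of 3 depends on the scale and the pseudocount: it was 0 after centring on the median gene and 0 with the same RPKM sum, and 5 with a pseudocount of 0.1 RPKM or none. The count over all 4473 genes moved the same way. It was 737 in the main setting, 356 after centring and 434 with the same sum. With a pseudocount of 0.1 RPKM it was 1366, and with none 1539. Ncl stood at the 91.4th percentile of all differences, Nop56 at the 88.5th, Npm1 at the 87.9th and the other 3 between the 70.6th and the 76.0th. A ratio above 0 in chromatin together with one below 0 in cytoplasm was seen in 6 of 6 members and in 46.5% of all genes. The difference stayed above 0, and above the median of all genes, for every member kept under each alternative scale, pseudocount and filter used. For the scales, the place above the median was largely fixed in advance, because a scale shifts all genes by similar amounts. After centring, a difference above 0 restates that place. The 2 heat shock comparisons share no library, but each shares its libraries with the comparisons between fractions.

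**Figure D4:**
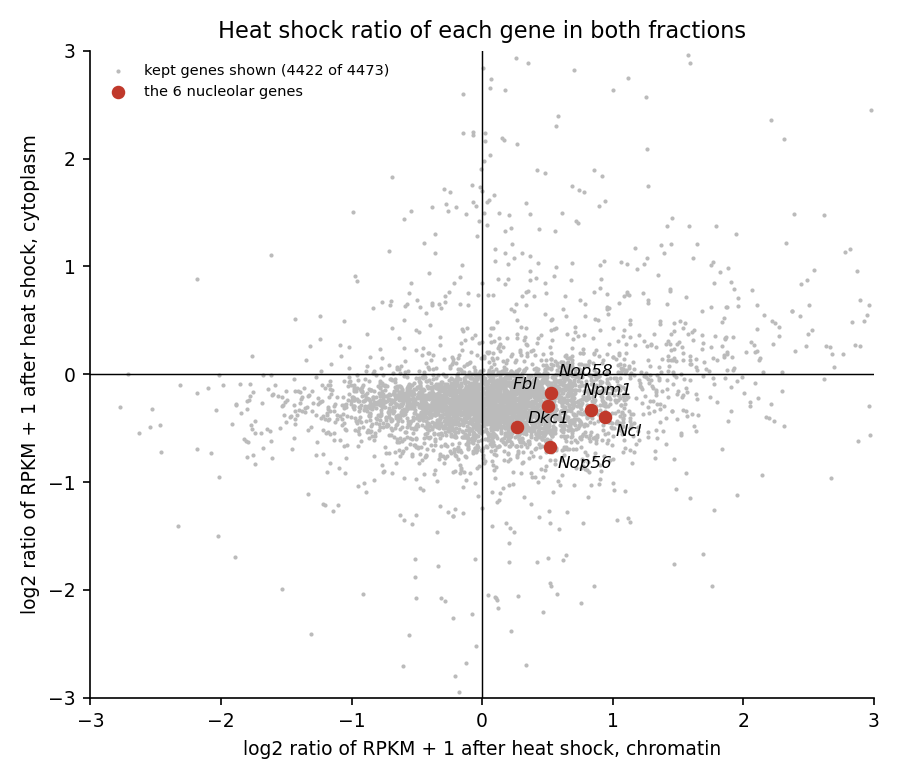
Log2 ratio of RPKM + 1 after over without heat shock in chromatin (horizontal) and cytoplasm (vertical), with 1 grey point for each of the 4422 of 4473 genes within 3 log2 units and red points for the 6 genes. All 6 red points lie right of 0 and below 0, as do 46.5% of all genes.

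Summed over the 6 genes, the level was 38.2 RPKM in chromatin without heat shock and 64.2 after it, and 54.0 and 38.7 RPKM in cytoplasm. Nop56 made up 41.9% of that sum in chromatin without heat shock and 20.6% in cytoplasm after it. Nop58 made up 11.7% and 10.7% in chromatin but 3.21% and 3.70% in cytoplasm. The Nop56 shares were 36.4% in chromatin after heat shock and 24.7% in cytoplasm without it. Npm1 went from 19.8% to 22.2% in chromatin and from 32.0% to 35.1% in cytoplasm. For Npm1, Nop56 and Nop58 these shares differed more between the fractions than between the conditions. The size of a share depends on gene length, which RPKM divides by, with implied lengths of 4884 bp for Nop56 and 34074 bp for Nop58. By reads, Nop58 was above Nop56 in chromatin without heat shock, with 2805 and 1435 of the 8357 reads of the 6 genes.

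Likeness of pattern was measured as the Euclidean distance between log2(RPKM + 1) values over the 4 libraries, each gene centred on its own mean. The mean profile of the 6 members includes the member compared, which lowers its distance, while the other genes are outside that mean. Fbl lay closest to it, at 0.0995, with 6 of 4467 other genes closer. Dkc1 (0.506), Ncl (0.661), Nop56 (0.676) and Npm1 (0.734) lay further off, with 632 to 1274 genes closer, and Nop58 furthest at 1.17, with 2597 genes closer. Among 749 other genes with a mean of at least 5 RPKM, the closest were ENSMUSG00000018379 at 0.104 and ENSMUSG00000048076 at 0.155. The former had 14.1 and 19.9 RPKM in chromatin and 16.1 and 12.0 in cytoplasm. A profile over 4 single libraries is shared by many genes, and the 6 members do not form a group of their own by this measure.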

How the data were processed

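Chromatin and cytoplasm RNA-seq of fibroblasts was used, with groups taken from the sample titles and 1 library per group. The deposited tables hold 1 RPKM value per Ensembl gene, computed by the authors. The submitters' processing notes list cutadapt, STAR and GRCm38 with no version number. The sources used here do not give the counter, the annotation, the use of strand or what was done with multiply matching reads, so overlapping genes and genes with near-identical copies are uncertain. Genes without a read are not listed. Per the labels' protocols, short RNA fragments were selected on a gel before library preparation.

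RPKM values were whole multiples of 1 read's worth. Totals were taken as the largest frequent common divisor of inverse RPKM values (20000 pairs, tolerance 0.002), and reads and length as the smallest whole numbers fitting all 4 libraries, which can come out too small by a shared factor. The recovered reads summed to 98.4% to 99.7% of the totals. Recovery and the 2-fold rule were tested on simulated data.

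Genes with a mean of at least 1 RPKM were kept. Log2 ratios used a pseudocount of 1 RPKM and a 2-fold threshold, over genes with reads in both libraries. Single folds are RPKM ratios with exact Clopper-Pearson intervals, and ratios of ratios have exact conditional intervals, both at 95% for counting error alone. Members and lists were chosen with earlier results of these data known. The rule for named genes took all members and the 5 genes of most similar profile, of which 2 identifiers are printed since none has a symbol here. Its parts on other ribosome assembly genes and on check genes needed symbols and were not applied, and small RNA genes are named from the annotation alone. Python 3.11.15, numpy 2.4.6, pandas 2.3.3, scipy 1.17.1 and matplotlib 3.10.9 were used.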

Additional observations from a re-analysis of the deposited data

Results flagged for a closer look

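All 6 genes moved in opposite directions in the 2 fractions on the deposited scale, higher in chromatin and lower in cytoplasm after heat shock. Subtracting the cytoplasmic from the chromatin log2 ratio of RPKM + 1 gave 1.34 for Ncl, 1.16 for Npm1, 0.80 for Fbl, 1.19 for Nop56, 0.69 for Nop58 and 0.76 for Dkc1. With 1 library per group this difference was not tested, and 46.5% of all genes showed the same pair of directions.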

How the results depend on the processing

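The difference between fractions kept its direction for all members under every alternative, while the sign within 1 comparison often followed the scale. Under centring, the kept direction only restates that the members lay above the median of all genes. Centring on the median gene gave member medians of 0.41 for heat shock in chromatin, -0.11 in cytoplasm, -1.0 and -0.51 for chromatin against cytoplasm without and after heat shock, and 0.60 for the difference between fractions, with 0 members past 2-fold toward chromatin in either condition and 0 with a difference of 1 or more. With the same RPKM sum, medians were 0.05 in chromatin, 0.66 and 1.38 between fractions and 0.62 for the difference, with 2 and 5 members past 2-fold toward chromatin, 0 toward cytoplasm and 0 with a difference of 1 or more. Ncl and Npm1 then turned to 0.46 and 0.44 without heat shock. With the 10 genes with most reads left out of the scale, medians were 0.70, -0.17, -1.52 and -0.75, with 2 members past 2-fold in chromatin after heat shock, 0 past it toward chromatin and 5 and 2 toward cytoplasm, and Nop58 without and Nop56 after heat shock turned to -0.23 and -0.15. These shifts follow from the scales themselves.

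A pseudocount of 0.1 RPKM gave medians of 0.68 in chromatin, -0.68 and 0.56 between fractions and 1.25 for the difference, and no pseudocount 0.71, -0.73, 0.59 and 1.28. Either way 1 member, Ncl, passed 2-fold in chromatin and 5 had a difference of 1 or more. At a mean of at least 5 RPKM, 3 members remained (Ncl, Npm1, Nop56), with medians of 0.83, -1.09, 0.25 and 1.19 and 0 and 1 past 2-fold toward chromatin. The medians of all genes at this filter were 0.44, -0.53, 0.15 and 0.78. Between fractions after heat shock the member median was then above that of all genes, not below it. Nop56, at 0.25 without heat shock, was also above the median of all genes there. Without the members that hold small RNA genes, Npm1 and Fbl had medians of 0.67 in chromatin and -0.66 without heat shock, with 0 past 2-fold toward chromatin in either condition, 1 toward cytoplasm and 1 with a difference of 1 or more. No filter on low values changed no member value. Across settings the all-gene counts past 2-fold moved by over 1.5 times, in chromatin from 481 higher and 216 lower to 294 and 832 with the same RPKM sum, and in cytoplasm from 153 and 110 to 272 and 706 without a pseudocount. Of 195 single member values, 20 changed sign, and the 4 of these that had been past 2-fold are given above. Toward chromatin and toward cytoplasm without heat shock, all-gene counts were 1460 and 529, against 3334 and 169 with the same RPKM sum and 278 and 1546 without the 10 genes, and after heat shock 2096 and 317, against 3469 and 101, and 421 and 1067. For the difference between fractions they were 737 and 202, against 434 and 534 with the same sum and 1539 and 258 without a pseudocount. The higher share of heat shock calls moved from 69.0% to 57.6%, 26.1% and 81.5% in chromatin and from 58.2% to 73.6%, 47.9% and 68.9% in cytoplasm under centring, the same sum and leaving out the 10 genes. No replicate could be left out, and the alternatives for the list of other ribosome assembly genes were not run because no identifier carries a symbol here. No paired analysis was possible because each group has 1 library.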
